A study of Mus musculus with 6 samples.

Results

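Matrix metalloproteinases are zinc-dependent endopeptidases that cut extracellular matrix proteins and many cell surface proteins, and tissue inhibitors of metalloproteinases (TIMPs) block them by binding the active site. Expression of 9 such genes was examined: the metalloproteinase genes Mmp2, Mmp3, Mmp9, Mmp10, Mmp13 and Mmp14 and the inhibitor genes Timp1, Timp2 and Timp3. They are a named list, matched by symbol to array features annotated with exactly 1 gene symbol, and the matching used no measured value. All 9 were found among the 22180 genes measured, each with 1 feature.

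The RNA came from stem cells of the hair follicle, taken from the skin of mice at postnatal day 49 with a cell sorter gated on CD34 and α6-integrin, and was hybridised to Mouse Gene 2.0 ST arrays (Affymetrix). There were 3 arrays of wild-type mice (WT) and 3 of K14-sPLA2-IIA transgenic mice (TG), numbered 1 to 3 in each genotype, and values below are listed in that order. The K14 promoter is active in keratinocytes of the basal layer and of the outer root sheath, and sPLA2-IIA is a secreted phospholipase A2 that frees fatty acids from phospholipids. The strain, the species of the transgene and the number of mice behind each array are not stated, so p-values measure the spread between these 6 samples, which may be technical.

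Most metalloproteinases are secreted as inactive precursors and are controlled at 3 steps: transcription, removal of the propeptide, and inhibition by TIMPs. In skin they act in wound closure, in shedding of growth factors and in remodelling of the basement membrane around the growing follicle. The genes for Mmp3, Mmp10 and Mmp13 are inducible in keratinocytes and fibroblasts, and AP-1, the Jun and Fos transcription factor complex, is a well-known activator of their promoters.

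Pla2g2a, the gene of the transgene product, differed by 6.38 ± 0.27 on the log2 scale (SE, n = 3 and 3) and was the 1 gene of 22180 past an adjusted p of 0.05 in limma (adjusted p = 0.00255). No gene passed (0) without TG array 1 or without both arrays numbered 3. Marker signal was not uniform between arrays, and whether the sort gave rise to this was not tested. The log2 of the summed level of 8 follicle stem cell markers was 13.939, 14.002 and 14.896 in WT against 14.629, 13.976 and 14.646 in TG. That of 6 suprabasal markers, made in outer epidermis, was 15.4, 15.5 and 14.1 in WT against 14.8, 15.4 and 13.8 in TG. WT array 3, TG array 1 and TG array 3 thus held more stem cell marker signal and less suprabasal signal than the other three, in both genotypes. The summed level of 4 T cell markers ranged from 9.76 to 12.43 and was lowest on the same 3 arrays, while that of 3 basal keratinocyte markers stayed between 14.32 and 14.64. Cd34, a gate marker, ranged from 9.65 to 13.07.

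The promoters of the inducible genes are shown because their motifs differ from those in the promoters of the inhibitors. Bases 250 to 1 upstream of the annotated start are given 5′ to 3′ from RefSeq on GRCm38.p6. Capitals mark matches on either strand to 3 motifs, which do not overlap one another in these sequences. The AP-1 motif was searched as TGANTCA. The TATA box, where the transcription machinery assembles on many inducible genes, was searched as TATAAA. The GC box, common in promoters of broadly expressed genes, was searched as GGGCGG. Mmp3 lies at chr9:7445572-7445821, Mmp10 at chr9:7502092-7502341 and Mmp13 at chr9:7272264-7272513, all on the plus strand, and Timp2 at chr11:118355412-118355661 on the minus strand.
Mmp3: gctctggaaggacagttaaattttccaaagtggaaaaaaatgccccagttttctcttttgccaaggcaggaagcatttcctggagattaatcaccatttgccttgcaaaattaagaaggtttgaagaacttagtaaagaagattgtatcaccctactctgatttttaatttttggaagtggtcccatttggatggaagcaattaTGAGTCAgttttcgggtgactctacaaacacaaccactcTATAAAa
Mmp10: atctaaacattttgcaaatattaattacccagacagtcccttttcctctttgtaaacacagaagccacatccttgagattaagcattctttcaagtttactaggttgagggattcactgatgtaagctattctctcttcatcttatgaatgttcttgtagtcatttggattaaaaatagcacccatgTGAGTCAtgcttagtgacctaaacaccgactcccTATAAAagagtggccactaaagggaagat
Mmp13: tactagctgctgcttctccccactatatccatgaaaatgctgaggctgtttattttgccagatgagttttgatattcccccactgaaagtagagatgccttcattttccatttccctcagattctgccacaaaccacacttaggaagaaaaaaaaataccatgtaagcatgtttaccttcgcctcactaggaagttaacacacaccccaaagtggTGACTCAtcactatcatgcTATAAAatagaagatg
Timp2: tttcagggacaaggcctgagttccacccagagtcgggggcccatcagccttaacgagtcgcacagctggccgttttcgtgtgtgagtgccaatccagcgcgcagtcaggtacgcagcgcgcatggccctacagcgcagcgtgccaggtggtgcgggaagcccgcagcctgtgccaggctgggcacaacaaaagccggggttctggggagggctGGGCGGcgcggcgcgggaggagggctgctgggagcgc

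Each of the 3 metalloproteinase promoters held 1 AP-1 match followed by 1 TATA box match and no GC box match. The AP-1 letters began at base -46 from the start in Mmp3, at -63 in Mmp10 and at -35 in Mmp13. The TATA box letters began at -7 in Mmp3, at -29 in Mmp10 and at -16 in Mmp13. These distances hold for the annotated starts, and the starts used in these cells were not tested. Timp2 held a GC box match at -37 and neither of the others. Mmp14, Timp1 and Timp3, not printed, also held GC box matches and no AP-1 or TATA box match. Of 32851 promoter entries of the same length, 6.75% held the AP-1 letters, 12.4% the TATA box letters, 1.21% both and 32.7% the GC box letters. A further motif, the ETS core AGGAAG, was found in Mmp3, Mmp13, Mmp14, Timp1 and Timp3 and in 29.5% of entries. Sequences matched 7 of the 9 genes. These matches describe letters in a window and say nothing of binding in these cells.

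Mmp9, which encodes gelatinase B, a secreted enzyme that cleaves denatured collagen and basement membrane collagen, was the gene of the 9 whose genotypes lay farthest apart. Its log2 value was 7.02, 7.42 and 6.79 in WT against 6.52, 6.75 and 6.19 in TG. All TG arrays lay below all WT arrays, with array 3 the lowest of each genotype and array 2 the highest. The summed suprabasal and T cell markers had the same order of arrays within each genotype. Across genotypes, TG array 2, with a suprabasal sum of 15.4, lay below WT array 3, with 14.1, for Mmp9. The part of the sort in Mmp9 was not tested. The Mmp9 mean was 7.07 ± 0.32 in WT and 6.49 ± 0.28 in TG (SD, n = 3 each). The difference was -0.59 ± 0.22 (SE), so that the TG level was 0.665 times the WT level, with a 95% interval from -1.11 to -0.066. It did not pass the threshold over all genes in limma (p = 0.0326, adjusted p = 0.99996), and p was 0.1 in an exact permutation test (two-sided), which cannot go lower with 3 arrays a genotype. By unadjusted p it ranked 385 of 22180. Over all genes 2.77% had an unadjusted p under 0.05, 0.843% with TG lower, and 8.45% did with the replicate number as a block.

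**Figure D1:**
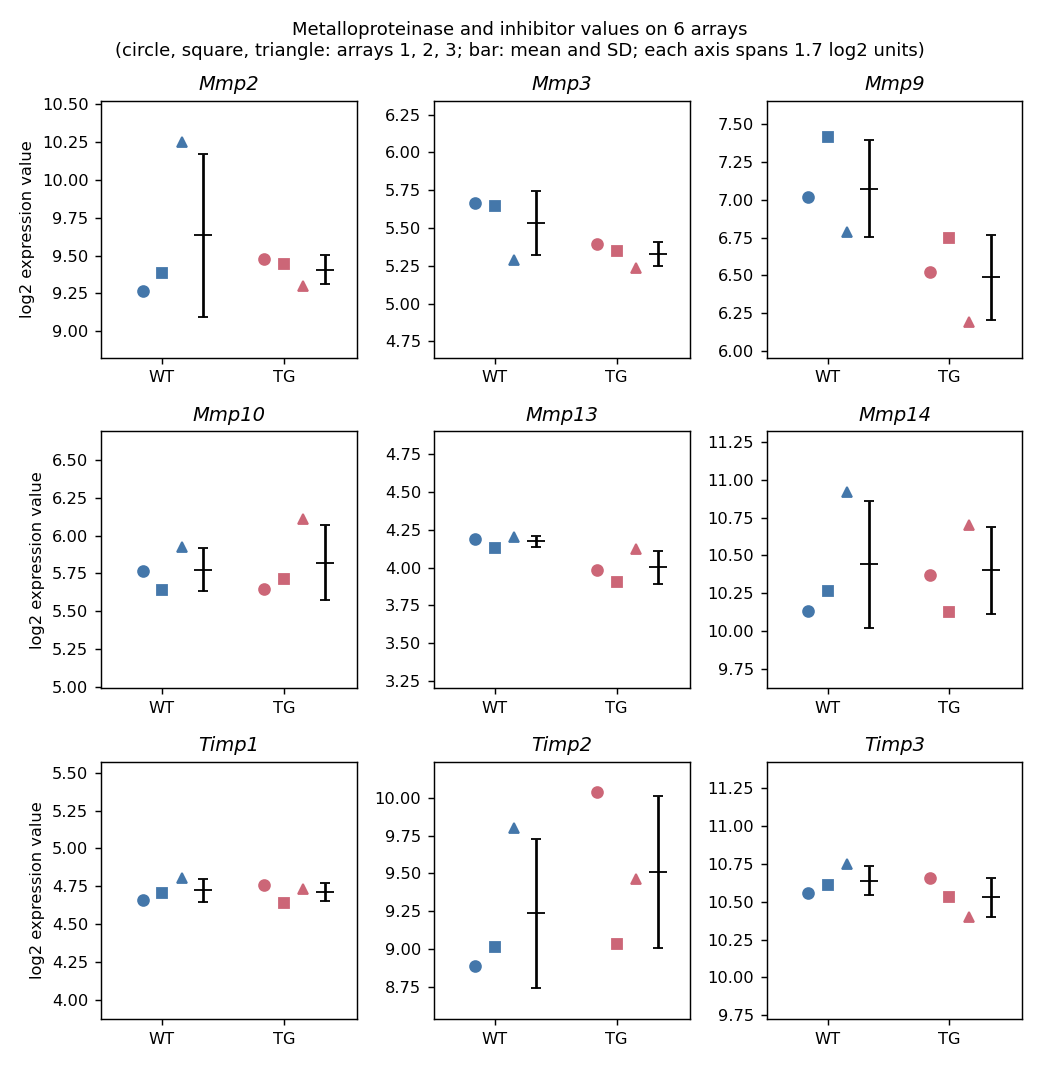
Log2 expression values of the 9 genes on each array, in WT (blue) and TG (red); circles, squares and triangles are arrays 1, 2 and 3, and the black bar is the mean with its SD (n = 3). Each panel spans the same number of log2 units, and only Mmp9 and Mmp13 have no overlap between genotypes.

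Macrophages, Langerhans cells and neutrophils also make Mmp9, and their markers were set beside it. The log2 of the summed level of 6 macrophage and Langerhans cell markers ran from 9.76 to 9.96 in WT and from 9.36 to 10.26 in TG, so the genotypes overlapped. Within each genotype these markers had the array order of Mmp9, with array 2 the highest and array 3 the lowest. They read 9.93, 9.96 and 9.76 in WT against 9.64, 10.26 and 9.36 in TG. Across genotypes the order differed, since TG array 2 was the highest of all 6 arrays for these markers and lay below every WT array for Mmp9. Of the 6 markers, 2 had a mean difference above 0. Adgre1, a surface receptor gene of macrophages, differed by -0.52 ± 0.21 (SE, adjusted p = 0.99996 in limma). The summed level of 5 neutrophil markers ran the other way, from 7.54 to 7.71 in WT and from 7.74 to 7.78 in TG. The margin was narrow, and most of these markers lay below the array median on all 6 arrays. Fewer cells of a type and less RNA per cell cannot be told apart in bulk samples, and the part of these cells in the Mmp9 values was not tested.

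Across the 9 genes, 0 passed the adjusted threshold in limma in either direction, against 0.00451% of all genes, and 1 (Mmp9) had an unadjusted p under 0.05. The genotypes did not overlap for 2 genes, Mmp9 and Mmp13, both with TG lower. Over all genes 7.2% did not overlap, 3.21% with TG lower. The mean difference was below 0 for 7 of the 9, where 52.1% of all genes were below 0. The median difference was -0.11 over the 9 genes, -0.19 over the 6 metalloproteinases and -0.011 over the 3 inhibitors, beside -0.0075 over all genes. Of the 9, Mmp9 was the only one past 1.5-fold.

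**Figure D2:**
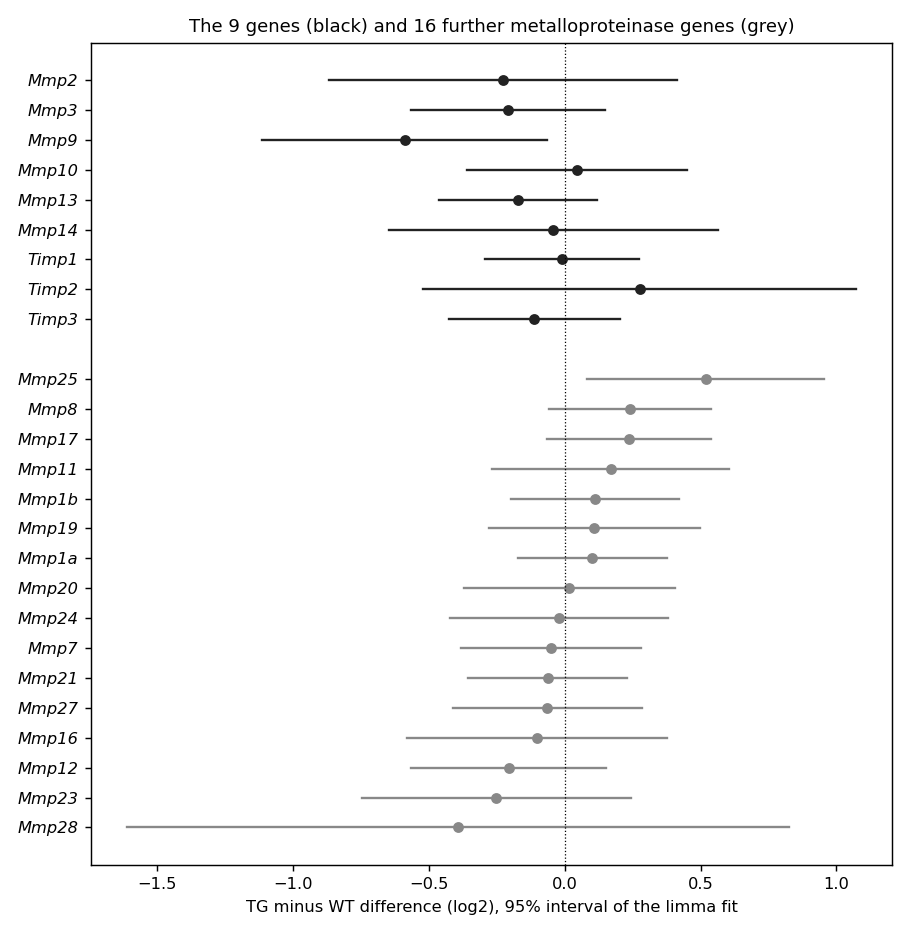
TG minus WT difference on the log2 scale (points) with the 95% interval of the limma fit (lines), for the 9 genes in black and 16 further metalloproteinase genes in grey. The intervals of Mmp9 (below 0) and Mmp25 (above 0) leave out 0 before adjustment over all genes, and none of these genes passed after it.

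Mmp14, Mmp2 and Timp2 form an activation unit at the cell surface. Mmp14, a membrane-anchored enzyme, binds Timp2, which in turn holds the precursor of Mmp2 (gelatinase A) for cleavage by a neighbouring Mmp14 molecule. Mmp14 read 10.13, 10.27 and 10.92 in WT against 10.37, 10.13 and 10.70 in TG. Array 3 was the highest of each genotype and the genotypes overlapped throughout. The 3 highest arrays, WT array 3, TG array 3 and TG array 1, were those with the most stem cell and least suprabasal marker signal, and the part of the sort in Mmp14 was not tested. The difference was -0.041 ± 0.25 (SE), with a 95% interval from -0.65 to 0.56.

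Mmp2 read 9.27, 9.38 and 10.25 in WT against 9.48, 9.45 and 9.30 in TG. WT array 3 alone stood above the other five, which lay within a narrow band. The difference was -0.23 ± 0.27 (SE), with an interval from -0.87 to 0.41, and it turned to 0.083 without WT array 3.

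Timp2 varied most among the inhibitors. It read 8.89, 9.01 and 9.80 in WT against 10.04, 9.03 and 9.46 in TG. Its 3 highest arrays, TG array 1, WT array 3 and TG array 3, were those with the highest summed stem cell markers in the 2 genotypes, and the part of the sort in Timp2 was not tested. The difference was 0.28 ± 0.33 (SE), with an interval from -0.52 to 1.07. Omitting TG array 1 gave 0.014 and omitting WT array 3 gave 0.56, and p was 0.5 in the exact permutation test.

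Fibroblasts are a known source of Mmp2, Mmp14 and Timp2, and 8 fibroblast markers were measured. Thy1 among them was also counted as a T cell marker, so their sum is not particular to fibroblasts. The log2 of their summed level ran from 9.69 to 9.98 in WT and from 9.71 to 10.12 in TG, and 6 of the 8 had a mean difference above 0. TG array 3 and WT array 3 were the highest of all 6 arrays for fibroblast markers and for Mmp14. For Timp2 both lay above WT arrays 1 and 2 and TG array 2. TG array 1, the highest for Timp2, was the second lowest for fibroblast markers. For Mmp2, WT array 3 was the highest and TG array 3 the second lowest. The part of fibroblasts in the 3 genes was not tested.

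Mmp3 and Mmp10 encode stromelysins 1 and 2, closely related enzymes that cleave proteoglycans, laminin and fibronectin and can activate other precursors. Mmp3 read 5.66, 5.65 and 5.29 in WT against 5.39, 5.35 and 5.24 in TG. WT array 3 was the WT array within the TG range, and in each same-numbered comparison TG lay below WT. The difference was -0.21 ± 0.15 (SE), with an interval from -0.56 to 0.15. Without WT array 3 the genotypes did not overlap, which fewer arrays make easier. The difference was then -0.33 (adjusted p = 0.881 in limma).

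Mmp10 went the other way on the arrays numbered 3. It read 5.77, 5.64 and 5.92 in WT against 5.64, 5.72 and 6.11 in TG. Array 3 was the highest of each genotype, whereas for Mmp3 it was the lowest. The difference was 0.046 ± 0.17 (SE), with an interval from -0.36 to 0.45, and it was -0.096 without TG array 3.

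Mmp13, collagenase 3, cuts fibrillar collagen and is the main interstitial collagenase of mouse. It read 4.19, 4.13 and 4.20 in WT against 3.98, 3.90 and 4.12 in TG. All TG arrays were under all WT arrays by a small margin, since TG array 3 was close to WT array 2, and the genotypes overlapped after quantile normalization. The difference was -0.17 ± 0.12 (SE), with an interval from -0.46 to 0.12 and p = 0.1 in the exact two-sided permutation test. On all 6 arrays Mmp13 lay below the first quartile of all features (4.66 to 4.74), so these values are among the dimmest of the table. No detection value was used here, and a low value can understate a difference.

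Mmp3 and Timp1 lay below the array median (5.90 to 5.99) on all 6 arrays and Mmp10 on 5. Mmp2, Mmp9, Mmp14, Timp2 and Timp3 lay above it on all 6. Brightness depends on the probes as well as the transcript, so it does not order the genes by abundance.

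Mmp3, Mmp10 and Mmp13 lie in a cluster of 10 metalloproteinase genes that follow each other among the protein-coding genes of chromosome 9. In order these are Mmp13, Mmp12, Mmp1b, Mmp3, Mmp1a, Mmp10, Mmp8, Mmp27, Mmp20 and Mmp7. Their differences had no common direction. Mmp12, macrophage elastase, differed by -0.21 ± 0.15 (SE), and its TG arrays lay below its WT arrays. The margin was narrow, with TG array 3 at 4.55 and WT array 2 at 4.56. On every array but WT array 1, Mmp12 lay below the first quartile of all features. Mmp8, neutrophil collagenase, differed by 0.24 ± 0.12 and Mmp1a, a collagenase gene, by 0.10 ± 0.11, and in both all TG arrays exceeded all WT arrays. For Mmp1a the margin was narrow, with TG array 2 at 4.56 and WT array 2 at 4.55. Mmp1b, Mmp27, Mmp20 and Mmp7 overlapped between genotypes and differed by 0.11, -0.063, 0.018 and -0.049. Mmp1a and Mmp1b are close copies, as are Mmp3 and Mmp10 to a lesser degree, and whether their probes tell them apart was not tested.

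**Figure D3:**
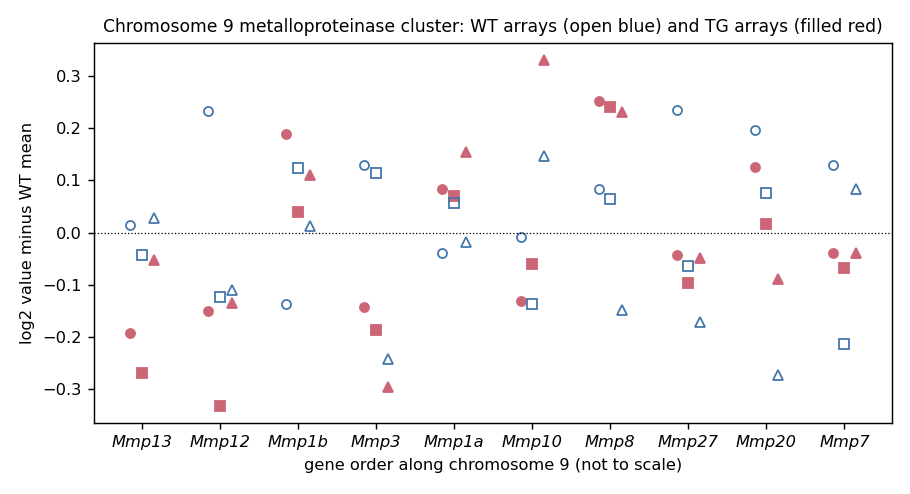
Log2 value minus the WT mean of the same gene for the 10 metalloproteinase genes of the chromosome 9 cluster, in gene order, with WT arrays as open blue and TG arrays as filled red symbols (circle, square and triangle for arrays 1, 2 and 3). Mmp13 and Mmp12 have all TG arrays below all WT arrays, and Mmp1a and Mmp8 have them above. The margins of Mmp13, Mmp12 and Mmp1a are narrow.

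The AP-1 and TATA box pair was not limited to the 3 genes above. Of the 17 other metalloproteinase genes looked for, 14 had a promoter entry, and 4 held both motifs, Mmp1a, Mmp1b, Mmp20 and Mmp7, all on chromosome 9.

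Of the 17 other metalloproteinase genes, 16 were measured and 0 passed the adjusted threshold in limma, while 1 had an unadjusted p under 0.05, with TG higher (1.93% of all genes). This was Mmp25, a membrane-anchored enzyme first described in leukocytes. It read 6.48, 6.90 and 6.50 in WT against 7.09, 6.96 and 7.39 in TG. All TG arrays exceeded all WT arrays, although WT array 2 was close to TG array 2, and the difference was 0.52 ± 0.18 (SE, adjusted p = 0.99996). Genotypes did not overlap for 4 of the 16 with TG higher, Mmp25, Mmp8, Mmp17 and Mmp1a, where 3.99% of all genes did so. With TG lower this held for 1, Mmp12, beside 3.21% of all genes. The median over the 16 was -0.0012.

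Mmp8 and Mmp25 are known from neutrophils. The summed neutrophil markers were higher on the 3 TG arrays too, though by a narrow margin, as given beside Mmp9. Mmp8 and the markers S100a8, S100a9 and Ly6g lay below the array median (5.90 to 5.99) on all 6 arrays, so these values are dim. Of the 5 markers, 3 had a mean difference above 0. S100a9 differed by 0.34 ± 0.19 and S100a8 by 0.30 ± 0.23 (SE), both also made by stressed keratinocytes, while the granule gene Mpo differed by -0.084 ± 0.20 and Ly6g by -0.0027 ± 0.26. The part of neutrophils in Mmp8 and Mmp25 was not tested.

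Mmp28 (epilysin), an enzyme of the epidermis, varied widely within genotypes. It read 7.98, 7.59 and 6.13 in WT against 6.71, 7.43 and 6.38 in TG. The 3 lowest arrays were those with the least suprabasal signal, and the difference of -0.39 ± 0.51 (SE) was smaller than its error. The part of the sort in Mmp28 was not tested.

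The 2 remaining inhibitors varied little. Timp1, a secreted inhibitor of most metalloproteinases but a weak one of Mmp14, read 4.66, 4.71 and 4.80 in WT against 4.76, 4.64 and 4.73 in TG. The 6 arrays spanned 0.16 on the log2 scale, and the difference was -0.011 ± 0.12 (SE), with an interval from -0.29 to 0.27. Timp3, which binds to the matrix and also inhibits the sheddase Adam17, read 10.56, 10.61 and 10.75 in WT against 10.66, 10.53 and 10.40 in TG. TG array 3 was the lowest and WT array 3 the highest. The genotypes overlapped through TG array 1 alone, since the other TG arrays lay below all WT arrays. The difference was -0.11 ± 0.13 (SE), with an interval from -0.43 to 0.20. These intervals do not show that either gene was alike in both genotypes.

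Other inhibitors were taken from a list of 10 genes, all measured, of which 0 passed the threshold in limma (0 with an unadjusted p under 0.05) and 2 did not overlap, with TG lower, as for 3.21% of all genes. These were A2m, encoding the broad protease trap α2-macroglobulin, at -0.23 ± 0.12 (SE), and Tfpi2, a serine protease inhibitor gene, at -0.22 ± 0.12. Pcolce, which enhances procollagen cleavage and can bind proteases, differed by -0.21 ± 0.14. The list median was 0.0064.

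The plasminogen system, whose product plasmin activates several metalloproteinase precursors, had 9 of 12 genes measured. None of the 9 passed in limma (0 with an unadjusted p under 0.05) and the median was -0.12. Plau, encoding urokinase, read 8.51, 8.51 and 7.93 in WT against 7.78, 8.49 and 7.33 in TG, and differed by -0.45 ± 0.32 (SE). Its 3 lowest arrays were those with the least suprabasal signal, and the part of the sort in Plau was not tested. Plgrkt, a plasminogen receptor gene, differed by -0.20 ± 0.11, and its TG arrays lay below its WT arrays, as for 3.21% of all genes. Lrp1, a receptor that clears protease and inhibitor complexes, differed by -0.21 ± 0.17. Of 16 genes for other proteases that activate precursors, 0 passed in limma (0 with an unadjusted p under 0.05), with a median of -0.020. Klk6, a kallikrein gene, differed by 0.67 ± 0.44 and Prss8, encoding prostasin, by -0.25 ± 0.20.

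Transcription factors known to act on metalloproteinase genes were examined as a list of 18 genes, of which 15 were measured. The list holds AP-1 and ETS factors and others such as Rela, Cebpb, Sp1 and Egr1. None passed over all genes in limma, 2 had an unadjusted p under 0.05, Jun and Fosb (1.93% of all genes with TG higher), and 3 did not overlap (3.99% of all genes with TG higher), all with TG higher. Jun read 11.91, 11.38 and 11.56 in WT against 12.89, 13.20 and 12.40 in TG. On the same TG arrays the 3 genes with an AP-1 match printed above differed from WT by -0.21 (Mmp3), 0.046 (Mmp10) and -0.17 (Mmp13). The 4 others of the cluster with both motifs differed by 0.10 (Mmp1a), 0.11 (Mmp1b), 0.018 (Mmp20) and -0.049 (Mmp7). Mmp12, also of the cluster, differed by -0.21. It held 1 AP-1 match in one promoter entry, none in another, and no TATA box match. Among all these genes, Mmp13, Mmp1a and Mmp1b lay below the first quartile of all features on every array. Whether Jun has a part in any of these values was not tested. Junb differed by 0.81 ± 0.37 (SE), with overlap, and the ETS factor gene Etv4 by 0.32 ± 0.15, without it. The list median was 0.21.

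Matrix proteins that these enzymes cut were examined as a list of 19 genes, of which 18 were measured, with a median of 0.020. None passed in limma. Fn1, encoding fibronectin, was the 1 gene with an unadjusted p under 0.05 (0.843% of all genes with TG lower). It differed by -0.77 ± 0.18 (SE, adjusted p = 0.99996), and Lama3, a laminin chain of the epidermal basement membrane, by -0.29 ± 0.14. In both, all TG arrays were under all WT arrays, as for Mmp9 and for 3.21% of all genes. The fibrillar collagen gene Col3a1 and the proteoglycan gene Dcn lay in the other direction, at 0.25 ± 0.15 and 0.92 ± 0.44, with overlap.

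Leaving out 1 array at a time showed which of the 9 differences rested on an array. The Mmp9 difference ran from -0.73 to -0.42 and that of Mmp13 from -0.23 to -0.12, and neither turned. Mmp3 stayed below 0 (-0.33 to -0.14) and Timp3 too (-0.18 to -0.047), whereas Mmp2, Mmp10, Mmp14 and Timp1 each turned sign without at least 1 array.

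**Figure D4:**
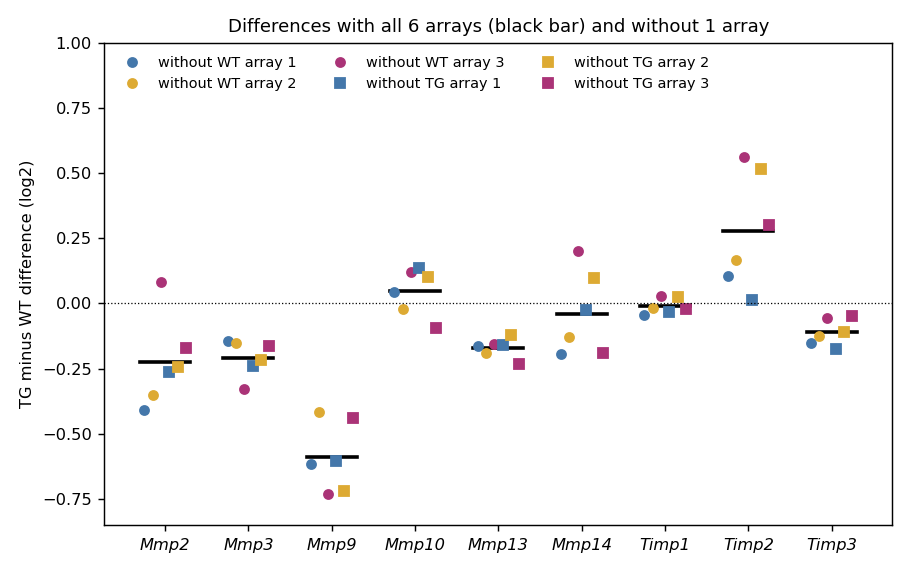
TG minus WT difference (log2) of each of the 9 genes with all 6 arrays (black bar) and without each WT array (circles) or TG array (squares) in turn, with colours for the array number. Mmp9, Mmp13, Mmp3 and Timp3 stay below 0 and Timp2 above 0 in all of these, while the other four cross 0.

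Genes with a like pattern were sought for Mmp9 and Timp2, the 2 genes with the widest range over the 6 arrays (1.23 and 1.15 on the log2 scale). Of 3614 candidate genes with a range of at least 1, the closest to Mmp9 by Pearson correlation over 6 arrays were Slc35f5 (0.996), Vamp1 (0.994) and Als2cl (0.993), and 6 exceeded 0.95. The closest to Timp2 were B3glct (0.989), Usp2 (0.988) and Tmem200b (0.983), and 13 exceeded 0.95. With 6 arrays, such values describe these arrays alone.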

How the data were processed

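The deposited values are the authors' expression values, 1 per array and feature, read as log2 from their range (2.85 to 14.42). Transcriptome Analysis Console and Affymetrix Expression Console (1.4.1) appear in the submitters' processing notes, which give no role for either. Log base, summarisation and scaling are not stated there, and fold changes hold only for base 2. Of 41345 features, 23521 had 1 gene symbol in the platform annotation, 1814 several and 16010 none. The brightest 1-symbol feature by mean of 6 arrays stood for a gene, without further scaling or filter.

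TG was compared with WT over all 22180 genes in R 4.3.3 by limma's moderated two-sided test (limma 3.58.1, genotype as the only term). Values of p were adjusted over all genes after Benjamini and Hochberg, and 0.05 was the threshold. The procedure was tested on simulated data. Precision is limited by the number of arrays.

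The 9 genes and all lists were drawn up with earlier results of these data known, although the rule that matched genes to features used no measured value. By the naming rule all 9 genes, the other metalloproteinase genes, up to 4 genes per list with the smallest unadjusted p, marker genes and the 3 closest patterns to 2 genes were named. Mpo, Ly6g, S100a8, S100a9, Adgre1, Thy1 and Cd34 were named as markers. Alternatives left out arrays (1 at a time, or both numbered 3), added the replicate number as a block, or changed scaling, feature choice, filter, weights or variance prior.

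After subtraction of genotype means, arrays numbered 1, 2 and 3 correlated across genotypes at 0.20, 0.67 and 0.74 (22180 genes), each above the limit of 0.1, so the numbers were taken as pairs in the block fit. No label says that a number marks a shared day or litter, and other combinations exceeded the limit too (0.50 for WT array 1 with TG array 2, 0.17 for WT array 2 with TG array 1).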

Additional observations from a re-analysis of the deposited data

How the results depend on the processing

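None of the 9 genes passed the adjusted threshold under the 14 alternatives (lowest adjusted p = 0.249 in limma, for Mmp9 with array weights). Of 122 gene values under alternatives, 104 kept their direction and 18 turned. The block, the feature choices, the filter and the variance prior leave these differences unchanged, so their values could not turn. The median difference of the 9 genes ran from -0.16 to 0.029 without 1 array, was 0.0076 without both arrays numbered 3 and 0.016 with array weights. With the replicate number as a block, Mmp9 had same-numbered differences of -0.50, -0.67 and -0.60 and a difference of -0.59 ± 0.10 (SE, adjusted p = 0.531 in limma), 1 gene passed over all genes, as without the block, and no call of the 9 genes changed. The count of genes past the threshold ran from 0 (without TG array 1) to 1 without 1 array and was 0 without both arrays numbered 3. The count of the 9 genes without overlap ran from 2 to 4 without 1 array (4 without WT array 3, with Mmp3 and Timp2 added), was 5 without both arrays numbered 3, 1 (Mmp9) with quantile normalization and 1 (Mmp9) with genes above the median level, where 5 of the 9 were tested. It was not recomputed for the block, the weights and the prior, which leave the values as they are. Fewer arrays separate more easily, and the share over all genes was not computed for these alternatives. The counts with arrays left out therefore cannot be set beside the 7.2% of all genes with 6 arrays. Without 1 array the differences ran from -0.41 to 0.083 for Mmp2, -0.096 to 0.14 for Mmp10, -0.19 to 0.20 for Mmp14, -0.043 to 0.029 for Timp1 and 0.014 to 0.56 for Timp2. Without both arrays numbered 3, Mmp2 was at 0.14, Mmp10 at -0.023, Mmp14 at 0.049, Timp1 at 0.018 and Timp3 at 0.0076. With array weights they were at 0.049, -0.025, 0.078, 0.040 and 0.016, and Timp2 at 0.80 (adjusted p = 0.305). Timp1 was at 0.020 with quantile normalization. The cause of these changes was not tested beyond the arrays left out. Mmp9 kept an unadjusted p under 0.05 in 10 of 14 alternatives. All those that lost it left out a single array: WT array 1, WT array 2, TG array 1 or TG array 3. Among single omissions, only those of WT array 3 and TG array 2 kept it. The block, the feature choices, the filter and the variance prior, all among the 10, reuse the same Mmp9 values. The count of 10 is therefore not a count of separate tests. The 95% intervals of Mmp2, Mmp9 and Mmp14 reach 1.5-fold lower and that of Timp2 reaches 1.5-fold higher, so differences of that size are not excluded with 6 arrays.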

Other observations

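Relatives of the metalloproteinases also showed no gene past the threshold. Of 28 ADAM and ADAMTS genes, whose products shed surface proteins or cut proteoglycans, 27 were measured and 0 passed in limma (0 with an unadjusted p under 0.05), with a median difference of -0.034. Adam15 differed by -0.27 ± 0.19 (SE), and Adamts19 read 6.15, 5.81 and 6.44 in WT against 7.77, 5.52 and 7.41 in TG. Its 3 highest arrays were those with the most stem cell marker signal, and the part of the sort was not tested. Of 12 cathepsin genes, which encode lysosomal proteases, 0 passed in limma. Ctsb was the 1 gene with an unadjusted p under 0.05 (1.93% of all genes with TG higher), at 0.28 ± 0.12 (adjusted p = 0.99996). Its TG arrays lay above its WT arrays (11.83 to 11.97 in WT and 12.12 to 12.23 in TG), as for 3.99% of all genes. Of 14 genes for surface partners, 13 were measured and 0 passed in limma (0 with an unadjusted p under 0.05). Lcn2, whose product binds Mmp9, differed by 0.32 ± 0.22, and Cd44, a hyaluronan receptor that docks Mmp9, by 0.23 ± 0.16.

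Mmp11 (stromelysin 3) had a second, dimmer feature. It read 5.42, 5.41 and 6.52 in WT against 5.54, 5.28 and 6.34 in TG, with the array numbered 3 the highest of each genotype. The brighter feature read 6.86, 6.85 and 7.19 in WT and 7.04, 6.93 and 7.43 in TG, with the same order of array 3.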
